A study of Mus musculus with 4 samples.

Results

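Single-cell RNA-seq of dissociated mouse dorsal root ganglia (DRG), the clusters of sensory neurons that serve the limb, was searched for monocytes by the transcripts of *Ly6c2*, *Ccr2* and *Chil3*. In this droplet method each cell carries a barcode and each captured RNA molecule a unique molecular identifier (UMI). A barcode was a member when it had at least 3 UMIs of the 3 marker genes together and at least 3 of *Ptprc* and *Lyz2* together. It also had to have at most 4 UMIs of the complement genes *C1qa*, *C1qb* and *C1qc*, at most 1 of *Cd209a*, at most 1 of *Cd79a*, at most 1 of the CD3 genes and at most 2 of *Pecam1* and *Cldn5*, with *S100a8* and *S100a9* under 1% of its UMIs. Of 6975 deposited barcodes, 6095 had between 600 and 15000 UMIs, between 500 and 4000 detected genes and a mitochondrial share below 10%, and 113 of these were members. The bounds are those of the study, which words the first as reads per cell and names a larger number of analysed cells, and they were applied here to UMIs. They are called gated monocytes below.

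The 4 libraries came from C57BL/6 mice aged 8 to 12 weeks, and the study's methods state that the animals were female. The groups compared were naïve ganglia (control, 2 libraries) and ganglia taken 3 days after sciatic nerve crush (injury, 2 libraries). Each library pooled several mice, and the ganglia were digested with papain and collagenase and sorted for live cells, so each value describes a pool of animals and the cells that survived the digestion. The labels name L4 ganglia and the methods L4 and L5. Control replicates 1 and 2 gave 39 and 15 gated monocytes with 186174 and 81780 UMIs, and injury replicates 1 and 2 gave 41 and 18 with 203290 and 95690 UMIs. The median gated monocyte had 4207, 4547, 4576 and 5201 UMIs in these libraries. No barcode sequence was shared among the members of different libraries, although 20 were shared between libraries over all deposited barcodes and the barcode of 1 member also occurred in another library.

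Classical monocytes are made in the bone marrow, circulate in blood and enter injured tissue through the chemokine receptor encoded by *Ccr2*, where they can turn into macrophages or cells that present antigen. Mouse classical monocytes carry much Ly6C on their surface, and *Chil3*, which encodes a chitinase-like secreted protein, marks a part of them along with immature neutrophils. Resident macrophages, conventional dendritic cells and neutrophils are the cells most readily mistaken for them in a ganglion that holds blood and vessels.

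The labelled cell type was borne out in only part of the members. *Ly6c2* gave 1054 UMIs in 83 of the 113 cells, *Ccr2* 386 UMIs in 99 cells and *Chil3* 575 UMIs in 54 cells. All 3 genes were found in 44 cells, *Ly6c2* with *Ccr2* in 25, *Ccr2* alone in 26, *Ly6c2* alone in 8, *Ly6c2* with *Chil3* in 6 and *Ccr2* with *Chil3* in 4. The members were chosen by these UMI counts, so the counts are a description. Endothelial cells, which should lack monocyte genes, were taken as cells with at least 5 UMIs of *Pecam1* and *Cldn5* together. They also had under 3 UMIs of *Ptprc* and *Lyz2* together, so cells with more of this leukocyte RNA were left out of this background. Of these 397 cells 7.30% had a *Ly6c2* UMI, 0% a *Ccr2* UMI and 1.76% a *Chil3* UMI. Their median was 4533 UMIs per cell against 4547 in the members. The members with *Ccr2* alone were mostly of another kind.

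*Ly6c2* has a close copy, *Ly6c1*, on the same chromosome, and reads that match both could be lost or split in counting. The stretches before their starts are shown with those of the other marker genes and of *Elane*, which set a group of members apart. The sequences are the 250 bases upstream of the RefSeq start lying furthest upstream (GRCm38.p6), 5′ to 3′ on the gene's strand. They lie at chr15:75111972-75112221 (minus strand) for *Ly6c2*, chr15:75048838-75049087 (minus) for *Ly6c1*, chr3:106167565-106167814 (minus) for *Chil3*, chr9:124101933-124102182 (plus) for *Ccr2* and chr10:79886062-79886311 (plus) for *Elane*. Capitals mark GAGGAA on either strand, the core letters bound by the myeloid factor PU.1, encoded by *Spi1*.
Ly6c2: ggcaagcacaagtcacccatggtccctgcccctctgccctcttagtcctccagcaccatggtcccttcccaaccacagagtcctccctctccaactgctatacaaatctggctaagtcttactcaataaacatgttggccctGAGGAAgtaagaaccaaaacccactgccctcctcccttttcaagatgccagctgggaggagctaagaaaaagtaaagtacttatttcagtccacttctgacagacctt
Ly6c1: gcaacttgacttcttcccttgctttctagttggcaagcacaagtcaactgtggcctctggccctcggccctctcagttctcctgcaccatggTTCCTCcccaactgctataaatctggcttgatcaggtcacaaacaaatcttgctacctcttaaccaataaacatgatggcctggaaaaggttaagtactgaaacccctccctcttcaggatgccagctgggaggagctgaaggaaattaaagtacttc
Chil3: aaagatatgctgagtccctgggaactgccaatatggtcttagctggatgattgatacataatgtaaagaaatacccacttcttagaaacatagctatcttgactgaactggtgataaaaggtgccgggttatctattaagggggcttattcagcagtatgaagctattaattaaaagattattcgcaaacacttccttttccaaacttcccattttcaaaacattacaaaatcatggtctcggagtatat
Ccr2: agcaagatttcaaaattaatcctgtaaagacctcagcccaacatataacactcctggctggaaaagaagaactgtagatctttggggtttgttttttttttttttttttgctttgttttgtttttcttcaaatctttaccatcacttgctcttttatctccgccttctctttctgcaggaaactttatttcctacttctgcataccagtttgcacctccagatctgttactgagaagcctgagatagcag
Elane: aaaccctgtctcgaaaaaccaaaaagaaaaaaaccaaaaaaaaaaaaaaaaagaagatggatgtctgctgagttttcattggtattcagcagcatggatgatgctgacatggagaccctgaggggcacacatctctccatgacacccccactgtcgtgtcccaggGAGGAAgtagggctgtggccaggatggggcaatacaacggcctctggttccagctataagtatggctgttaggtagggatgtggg
The *Ly6c2* and *Ly6c1* stretches were identical at 171 of 210 aligned bases (81.4%), and both held 1 match. The motif was present upstream of 7 of 10 genes looked up (*Ly6c2*, *Ly6c1*, *Elane*, *Mpo*, *Prtn3*, *Ctsg* and *Plac8*) and absent from the windows of *Ccr2*, *Chil3* and *Ms4a3*, against 23.1% of 27025 promoters of the same length. The 10 genes were picked for their place in this report, and a match is a run of letters and not a binding site. The likeness of these upstream stretches does not measure that of the transcripts, and reads that match both genes were not examined. In the counts *Ly6c1* gave 10 UMIs in 4 gated monocytes. It was at 4271 CPM (UMIs of the gene per 1000000 UMIs of the cells) in the endothelial cells, where *Ly6c2* was at 15.1 CPM.

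By library, *Ly6c2* stood at 2095 and 1639 CPM in control and 1205 and 2978 CPM in injury replicates 1 and 2. *Ccr2* stood at 929 and 416 CPM in control and 669 and 449 CPM after injury. *Chil3* stood at 838 and 673 CPM in control and 1412 and 805 CPM after injury. The control and injury values overlapped for all 3 genes.

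The members fell into unlike groups of cells when other genes were read (limits set after the cells were seen, so that what follows is a description without tests). Of the members, 29 had at least 100 UMIs of the antigen presentation genes *Cd74*, *H2-Aa*, *H2-Ab1* and *H2-Eb1*. Their *Cd74* median was 259 UMIs per cell, from 57 to 806, and their *Lyz2* median was 14. Of them 23 had *Ccr2* as their sole marker gene. *Plac8*, a gene of classical monocytes, was found in 12 of the 29, whereas *Xcr1*, a chemokine receptor of cross-presenting dendritic cells, was found in 16, *Ifi205* in 19, the dendritic growth factor receptor *Flt3* in 13 and *Clec9a* in 8. *Chil3* was found in 2 of the 29 and *Ly6c2* in 5.

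Another 12 cells had at least 10 UMIs of the granule genes *Elane*, *Mpo*, *Prtn3*, *Ctsg* and *Ms4a3*, which are made by marrow precursors of granulocytes and monocytes. *Elane*, neutrophil elastase, had a median of 26.5 UMIs per cell there and a highest value of 204, against a total of 7 UMIs in the 67 cells outside every group. *Mpo*, myeloperoxidase, had a median of 24.5 UMIs and *Prtn3*, proteinase 3, a median of 20.5. All 12 carried *Ly6c2*, with a median of 23.5 UMIs, and *Lyz2* was low, with a median of 7.5. A further 3 cells carried *Nkg7*, *Klrd1* and *Ncr1*, genes of natural killer cells, and 2 carried *Ly6d*, a gene of plasmacytoid dendritic cells, with *Irf8*.

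The other 67 cells (59.3% of members) bore the classical monocyte genes. Of the genes below, *Lyz2*, *Ly6c2*, *Ccr2* and *Chil3* were gate genes, so their presence follows in part from the selection. *Cd74* was among the genes whose limit set other members apart. *Plac8*, *Ifitm3*, *Cebpb*, *Hp* and *Fn1* were used in neither way. *Lyz2*, lysozyme, was found in all 67 with a median of 153 UMIs, *Plac8* in 66 with a median of 19, *Ifitm3* in 67 with a median of 22 and *Ly6c2* in 63 with a median of 9. *Cebpb*, a transcription factor of the myeloid lineage, was found in 64, *Hp*, haptoglobin, in 61, *Ccr2* in 59, *Fn1*, fibronectin, in 52 and *Chil3* in 48. *Cd74* was found in 32 with a median of 0, *Xcr1*, *Clec9a* and *Zbtb46* in none (for 0 of 67 cells the upper limit is 4.48% of cells with a UMI), and of the genes listed for non-classical monocytes *Klf2* was found in 52, *Nr4a1* in 48, *Cx3cr1* in 18 and *Treml4* in 3.

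**Figure D1:**
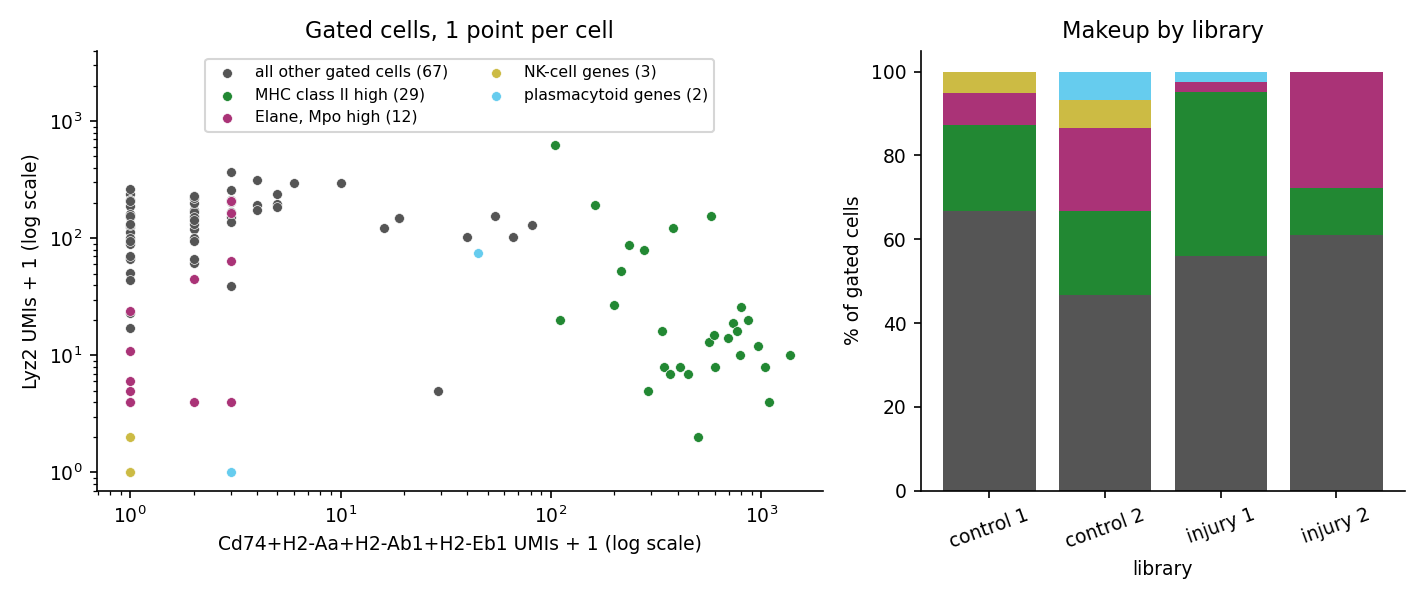
Left, each gated cell by its UMIs of 4 MHC class II genes plus 1 and its *Lyz2* UMIs plus 1 (log axes), coloured by group; right, the share of each group among the gated cells of each library. The 29 MHC class II high cells lie to the right and mostly low in *Lyz2*, and the 12 *Elane* and *Mpo* high cells take 27.8% of the cells of injury replicate 2 but 2.44% of those of injury replicate 1.

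The shares of the larger groups overlapped between control and injury libraries. The MHC class II high cells took 20.5% and 20% of the members in the control libraries (replicates 1 and 2, in that order throughout) against 39.0% and 11.1% in the injury libraries. The *Elane* and *Mpo* high cells took 7.69% and 20% in control and 2.44% and 27.8% after injury. The 67 other cells took 66.7% and 46.7% in control and 56.1% and 61.1% after injury. The 3 cells with natural killer genes did not overlap, with 2 and 1 cells in control (5.13% and 6.67%) and 0 in both injury libraries. Mitochondrial genes held 2.15% and 4.02% of the UMIs of the members in control replicates 1 and 2, and 2.05% and 3.74% in the injury replicates, so that this share split by replicate number. Every level below that is summed over the gated monocytes of a library carries this makeup, and its part in the differences was not tested.

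At the edge of the gate, 14 members with exactly 3 marker UMIs had a median of 10.5 *Lyz2* UMIs and 192 *Cd74* UMIs. The 16 cells just outside, with 2 marker UMIs and every other limit met, had medians of 4.5 *Lyz2* and 222 *Cd74* UMIs. The cells on both sides of the limit were thus rich in *Cd74*. A further 245 cells met every limit but that on the C1q genes, 101 every limit but that on *S100a8* and *S100a9*, and 29 every limit but that on *Cd209a*. Among the members 28 had 1 to 4 C1q UMIs.

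Whether the number of gated monocytes differed after nerve crush was asked over libraries. They made up 3.00% (39 of 1301 cells, exact 95% binomial interval 2.14 to 4.08) and 1.119% (15 of 1341, 0.627 to 1.84) of the cells in control replicates 1 and 2. After injury they made up 1.72% (41 of 2377, 1.24 to 2.33) and 1.67% (18 of 1076, 0.994 to 2.63). The intervals cover counting error only. The control mean was 2.06% ± 1.33 and the injury mean 1.70% ± 0.0368 (SD over 2 libraries each). The difference, −0.359 points, was less than the SD of the control libraries, and a two-sided exact permutation test over libraries gave p = 1, where 0.3333 is the lowest value possible. Without control replicate 1 the difference was 0.580 points, and after removal of cells with genes of other types or of granules it was 0.0930 points.

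Counted against leukocyte barcodes, those with at least 3 UMIs of *Ptprc* and *Lyz2* together, the gated monocytes made up 10.1% and 10.1% in control and 6.95% and 6.10% after injury. Here the control and injury libraries did not overlap, and the difference was −3.55 points (p = 0.3333 by the same exact test, its lowest possible value). The 245 cells kept out of the gate by their C1q UMIs alone numbered 51 and 17 in control and 128 and 49 after injury. They were among the leukocyte barcodes (387 and 149 in control, 590 and 295 after injury) but were counted neither as gated monocytes nor as macrophages. How far the lower share rests on the C1q limit was not tested. The number of gated monocytes per macrophage, gated as described below, was 0.199 and 0.234 in control and 0.116 and 0.114 after injury. Macrophages numbered 196 and 64 in control and 353 and 158 after injury.

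**Figure D2:**
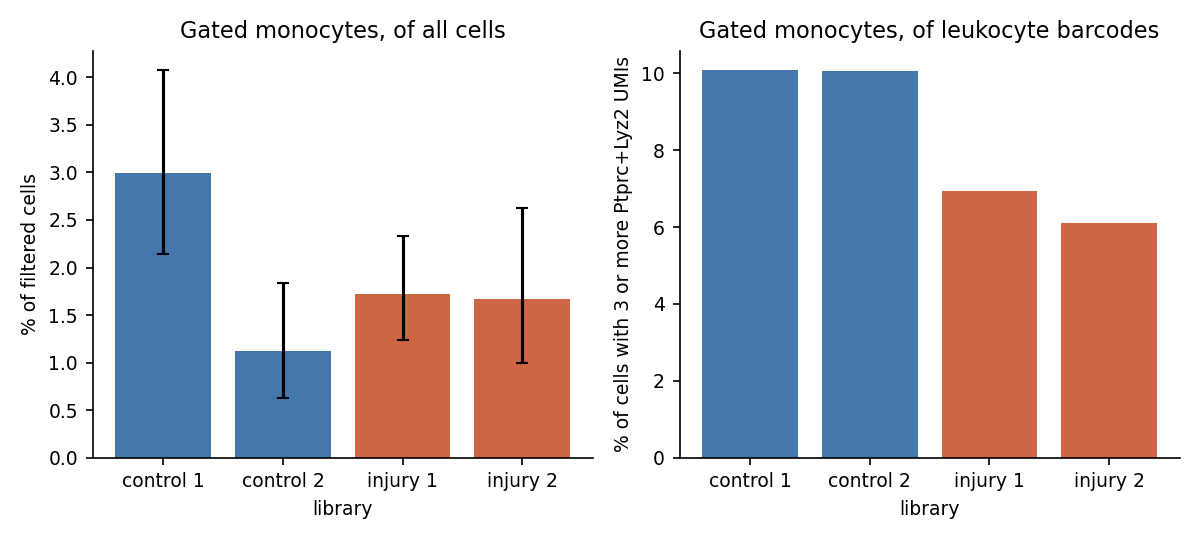
Share of gated monocytes in each library among all filtered cells (left, error bars are exact 95% binomial intervals) and among leukocyte barcodes (right). Control replicate 1 stands highest on the left at 3.00%, and both control libraries stand at 10.1% on the right against 6.95% and 6.10% after injury.

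The most abundant transcripts of the gated monocytes, outside mitochondrial and ribosomal protein genes, were those of the actin-binding *Tmsb4x* (24653 ± 4457 CPM, SD, n = 4 libraries), *Lyz2* (19575 ± 9578) and the nuclear RNA *Malat1* (13081 ± 3599). They were followed by *Cd74*, *Cst3*, *Ftl1*, *Tmsb10*, *Actb*, *H2-Ab1*, *Actg1*, *Ptma*, *H2-Aa*, *Ubb*, *Plac8* and *Fau*. Among these *Plac8* was the steadiest, at 3787 and 3424 CPM in control and 3556 and 3856 CPM after injury. *Cd74* ranged from 4055 CPM in injury replicate 2 to 19079 CPM in control replicate 1. *Lyz2* was at 31804 and 9416 CPM in control and 21728 and 15352 CPM after injury, and in the 67 cells alone at 45560 and 27240 CPM in control and 38860 and 23350 CPM after injury.

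To show where the gated monocytes differed from the most similar cells, their UMIs were summed per library and tested against those of 3 other sets of cells from the same libraries. Macrophages (771 cells) had at least 5 C1q UMIs and under 3 UMIs of the 3 marker genes together, which left out 245 cells. Cd209a cells (56) had at least 2 *Cd209a* UMIs. Cells of the neutrophil lineage (114) had at least 1% of UMIs from *S100a8* and *S100a9*. Neither of these had a limit on the marker genes, and 29 Cd209a cells and 101 neutrophil-lineage cells had at least 3 marker UMIs. The other limits were like those of the gate. Because all sets were gated on expression, genes that accompany the gate genes from cell to cell differ by construction. The filter on low counts could be passed through the level in 1 set alone. Counts over a list of genes that belong to 1 of the sets were thus in part fixed in advance. The tests measure how the sets differ in these libraries, and the gate genes themselves were left out of every count. The test was the quasi-likelihood test of edgeR, blocked by library, and a gene was called where its Benjamini-Hochberg p lay under 0.05 and its log2 fold change was 2 or more in size.

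Against macrophages, 83 of 2138 genes tested were higher in the gated monocytes (3.88%) and 140 were lower (6.55%). Higher were 12 of 21 classical monocyte genes and 7 of 9 myeloid precursor genes, and lower were 9 of 12 chemokine genes and 9 of 12 macrophage genes. *Plac8* was at 3787 and 3424 CPM in control and 3556 and 3856 CPM in injury replicates 1 and 2 of the gated monocytes, against 8.26 and 4.33 CPM and 7.76 and 8.04 CPM in macrophages. The 2 ranges lay far apart, with a log2 fold change of 8.63 ± 0.486 (SE, edgeR adjusted p = 7.74e-10). *Hp* was at 870, 281, 777 and 826 CPM in the same order of libraries, against at most 6.61 CPM in macrophages, a log2 fold change of 8.08 ± 0.554 (edgeR adjusted p = 7.76e-09). With cells of at least 3 marker UMIs kept among the macrophages, 203 genes were called in all. Of these, 198 were among the 223 called with the narrower macrophage gate.

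Of the 27 listed genes of classical monocytes, 21 were outside the gate and passed the filter on low counts. Of these, 12 were higher (among them *Fn1*, *Thbs1*, *S100a4*, *S100a6*, *Plac8*, *Mgst1*, *Ifitm6*, *Smpdl3a*, *Hp*, *Lgals3* and *Emb*) and 2 were lower, with a median log2 fold change of 2.41 against −0.04 over all genes tested. The 2 lower genes were *Csf1r*, the receptor of macrophage colony-stimulating factor (177, 24.5, 167 and 52.3 CPM against 1249, 841, 808 and 786 CPM, log2 fold change −3.35 ± 0.375), and *Fcgr1*, an Fc receptor (−2.08 ± 0.375). *F13a1*, coagulation factor XIII, was at 323 ± 136 CPM (SD, n = 4) in the gated monocytes and 380 ± 114 CPM in macrophages and was not called.

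Of 8 genes of adhesion and trafficking tested, 4 were higher (among them *Itgb7*, *Cd44* and *Emb*) and none lower. *Itgb7*, an integrin subunit, was at 209 ± 82.3 CPM (SD, n = 4) against 0.448 ± 0.896 CPM. *S100a4*, a calcium-binding protein of motile cells, was at 571 ± 167 CPM against 24.9 ± 5.29 CPM. *Lgals3*, galectin-3, was at 2059 ± 955 CPM against 187 ± 135 CPM. *Napsa*, an aspartic protease, and *Slpi*, an inhibitor of leukocyte proteases, were at 548 ± 277 and 411 ± 131 CPM against 6.25 ± 3.55 and 2.35 ± 1.77 CPM.

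Granule genes were among those of largest fold and rested on few cells. Of 9 myeloid precursor genes tested 7 were higher (*Fcnb*, *Prtn3*, *Elane*, *Cebpe*, *Ctsg*, *Mpo* and *Ms4a3*). *Elane* was at 301 and 1235 CPM in control and 113 and 4023 CPM after injury, against 1 UMI among all macrophages (log2 fold change 10.6 ± 0.493). Of its 565 UMIs in members, 558 came from the 12 granule-gene cells. *Nkg7*, a gene of cytotoxic granules, was at 168 ± 115 CPM against 0 UMIs in macrophages. This was at least 189-fold higher with the floor set at 3 UMIs over all macrophages. Of its 75 UMIs, 40 came from the 3 cells with natural killer genes, 35 from the 12 granule-gene cells and 0 from the 67 other cells. After removal of cells with other types' or granule genes, which left gated monocytes of control replicate 1 and injury replicate 1 alone, *Plac8* and *Hp* were still called (log2 fold changes 8.47 and 7.87).

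Chemokine genes lay on the macrophage side. Of 12 tested, 9 were lower in the gated monocytes (*Pf4*, *Cxcl2*, *Cxcl10*, *Cxcl16*, *Ccl2*, *Ccl7*, *Ccl12*, *Ccl8* and *Ccl4*) and none was higher, with a median log2 fold change of −3.44. *Ccl8* had no UMI in any gated monocyte and was at 834 ± 472 CPM in macrophages, at least 157-fold lower with the floor at 3 UMIs over all gated monocytes. *Pf4*, platelet factor 4, was at 16.1, 0, 24.6 and 0 CPM against 3992, 2015, 2861 and 2846 CPM (log2 fold change −8.04 ± 0.439). *Ccl12* was at 15.6 ± 13.7 CPM against 2729 ± 1576 CPM, and *Ccl7* at 11.5 ± 13.4 CPM against 1592 ± 971 CPM. *Ccl2*, the ligand of the *Ccr2* receptor, was at 160 ± 125 CPM against 1402 ± 900 CPM. The other 3 chemokine genes tested were not called. Among these *Ccl6* and *Ccl9* were at 704 ± 310 and 735 ± 356 CPM in the gated monocytes against 244 ± 80.2 and 270 ± 48.3 CPM in macrophages.

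Of 12 macrophage genes tested, 9 were lower (*Mrc1*, *Fcrls*, *Pf4*, *Apoe*, *Maf*, *Cbr2*, *Aif1*, *Trem2* and *Ms4a7*) and none higher. *Stab1*, a scavenger receptor, and *Dab2*, an adaptor of endocytosis, were at 2.57 ± 2.98 and 16.1 ± 22.3 CPM against 265 ± 62.5 and 759 ± 190 CPM. Other genes with the largest falls were *Lilra5*, *Ltc4s*, *G530011O06Rik*, *Hpgds* and *Slco2b1*. Of 6 non-classical monocyte genes tested, *Ear2* was higher and *Cd36* and *Cx3cr1*, the fractalkine receptor, were lower. *Cx3cr1* was at 43.0, 24.5, 93.5 and 0 CPM in the gated monocytes and at 413, 338, 484 and 470 CPM in macrophages. Of 8 MHC class II genes tested, *H2-Oa* was called higher and none lower, and of 7 interferon response genes *Cxcl10* was called lower. Of 15 transcription factor genes, *Cebpe* was higher and *Maf* and *Klf6* were lower.

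Against Cd209a cells, which carry a C-type lectin of monocyte-derived dendritic cells, 41 of 2138 genes were higher in the gated monocytes (1.92%) and 42 were lower (1.96%). Higher were 6 of 21 classical monocyte genes and 5 of 9 myeloid precursor genes, and lower were 6 of 8 MHC class II genes. *Plac8* was at 778 and 1241 CPM in control and 644 and 262 CPM after injury in the Cd209a cells, below every library of the gated monocytes (log2 fold change 2.14 ± 0.353, edgeR adjusted p = 0.000938). *Hp* was at 689 ± 274 CPM against 13.1 ± 15.6 CPM (5.45 ± 0.638). Of 21 classical monocyte genes tested, 6 were higher, among them *Fn1*, *Plac8*, *Mgst1*, *Hp* and *F13a1*, and none was lower, with a median of 0.53 against 0.00 over all genes. *Emb* and *S100a4*, which were called against macrophages, were at 412 ± 74.4 and 571 ± 167 CPM in the gated monocytes and 247 ± 80.0 and 671 ± 189 CPM in Cd209a cells and were not called.

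*Irf8* and *Cebpb*, transcription factors of the monocyte and dendritic lineages, were higher in the gated monocytes, as was *Id2*. *Irf8* was at 682 and 844 CPM in control and 920 and 596 CPM after injury, against 35.9 and 222 CPM and 327 and 87.4 CPM in Cd209a cells (log2 fold change 2.03 ± 0.421, edgeR adjusted p = 0.00564). Of its 440 UMIs in members, 309 came from the 29 MHC class II high cells. *Id2* gave 200 UMIs in those 29 cells and 37 in the 67 other cells. *Cebpb* was at 1619 ± 428 CPM against 232 ± 131 CPM (2.60 ± 0.523), and 812 of its 978 UMIs came from the 67 other cells. *Gsr*, glutathione reductase, was at 457 ± 81.2 CPM against 21.9 ± 29.5 CPM (4.41 ± 0.424).

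Of 8 MHC class II genes tested, 6 were lower than in Cd209a cells (*H2-Oa*, *H2-DMb2*, *H2-Ab1*, *H2-Aa*, *H2-Eb1* and *Cd74*), with a median log2 fold change of −2.42. The lectin genes *Mgl2* (33.8 ± 27.9 against 1070 ± 385 CPM) and *Clec10a* (20.6 ± 13.2 against 559 ± 123 CPM) fell the most, with log2 fold changes of −5.35 ± 0.601 and −4.96 ± 0.488. *Il1b*, the gene of interleukin-1β, was at 1182 and 48.9 CPM in control and 1240 and 188 CPM after injury in the gated monocytes and at 3124, 963.5, 4673 and 1966 CPM in Cd209a cells (−2.75 ± 0.595, edgeR adjusted p = 0.00794). The ranges of the sets overlapped. Other genes among the largest falls were *Slamf9*, *Tnfsf9*, *Tnip3*, *Tmem176a*, *Clec4b1* and *Bcl2a1d*.

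After removal of cells with genes of other types or of granules, which also left only replicates 1 with enough gated monocytes, 9 genes were higher and 18 lower than in Cd209a cells. Fewer cells and fewer libraries cannot be told apart in that count. Without control replicate 1 or injury replicate 2, 23 and 24 genes were higher.

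Against cells of the neutrophil lineage, 123 of 2138 genes were higher in the gated monocytes (5.75%) and 120 were lower (5.61%). Higher were 7 of 8 MHC class II genes and 6 of 15 transcription factor genes. All 8 neutrophil genes tested were lower (*G0s2*, *Lcn2*, *Mmp8*, *Camp*, *Ngp*, *Ltf*, *Ly6g* and *Retnlg*). Their level in the neutrophil lineage alone could carry them past the filter, and the sets were gated apart on *S100a8* and *S100a9*. This count was thus largely fixed in advance and is a description. *Camp*, the cathelicidin precursor, gave 8 UMIs in the gated monocytes and was at 13.2 ± 12.8 CPM against 53470 ± 8620 CPM (log2 fold change −12.9 ± 0.668). *Ngp*, neutrophilic granule protein, was at 13.3 ± 23.5 CPM against 66860 ± 15070 CPM. *Ly6g*, the defining surface marker of neutrophils, had no UMI in any gated monocyte and was at 627 ± 353 CPM, at least 118-fold lower with the floor at 3 UMIs. *Chil1*, *Orm1* and *Itgb2l* likewise had no UMI in gated monocytes.

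Of 8 MHC class II genes tested, 7 were higher (*H2-Oa*, *H2-DMa*, *H2-DMb1*, *H2-Ab1*, *H2-Aa*, *H2-Eb1* and *Cd74*), and the 29 MHC class II high cells supplied 8024 of the 8321 *Cd74* UMIs of members. Of 15 transcription factor genes, 6 were higher, among them *Zeb2*, *Klf4*, *Irf5*, *Pou2f2* and *Irf8*, and *Cebpe*, a regulator of the granulocyte lineage, was lower. *Irf8* was at 760 ± 148 CPM against 17.6 ± 23.8 CPM (log2 fold change 4.73 ± 0.563). *Klf4*, which drives monocyte differentiation, was at 231, 147, 202 and 52.3 CPM against 6.86, 0, 25.2 and 10.1 CPM (3.02 ± 0.568). *Rgs1*, a regulator of G protein signalling, was at 106 ± 83.0 CPM against 0 UMIs, at least 18.9-fold higher.

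Of 21 classical monocyte genes, 6 were higher than in the neutrophil lineage (*Fn1*, *S100a4*, *Fcgr1*, *F13a1*, *Csf1r* and *Ms4a4c*) and 3 lower (*Itgam*, *Ifitm6* and *Hp*). *Hp*, which was far above macrophages and Cd209a cells, was at 3649 and 1936 CPM in control and 2402 and 2111 CPM after injury in the neutrophil lineage, above every library of gated monocytes (log2 fold change −2.78 ± 0.351). The Ly6C gene itself was shared, with a *Ly6c2* UMI in 87.7% of the neutrophil-lineage cells, and *Chil3* was found in 88.6% of them. Both were gate genes and were not tested. Of 9 myeloid precursor genes tested, 0 were higher and 3 lower (*Fcnb*, *Cebpe* and *Ms4a3*). The list of 12 summed to 2208 and 6628 CPM in control and 2041 and 10740 CPM after injury in the gated monocytes. In the neutrophil lineage it summed to 1934 and 6422 CPM in control and 2390 and 12920 CPM after injury.

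**Figure D3:**
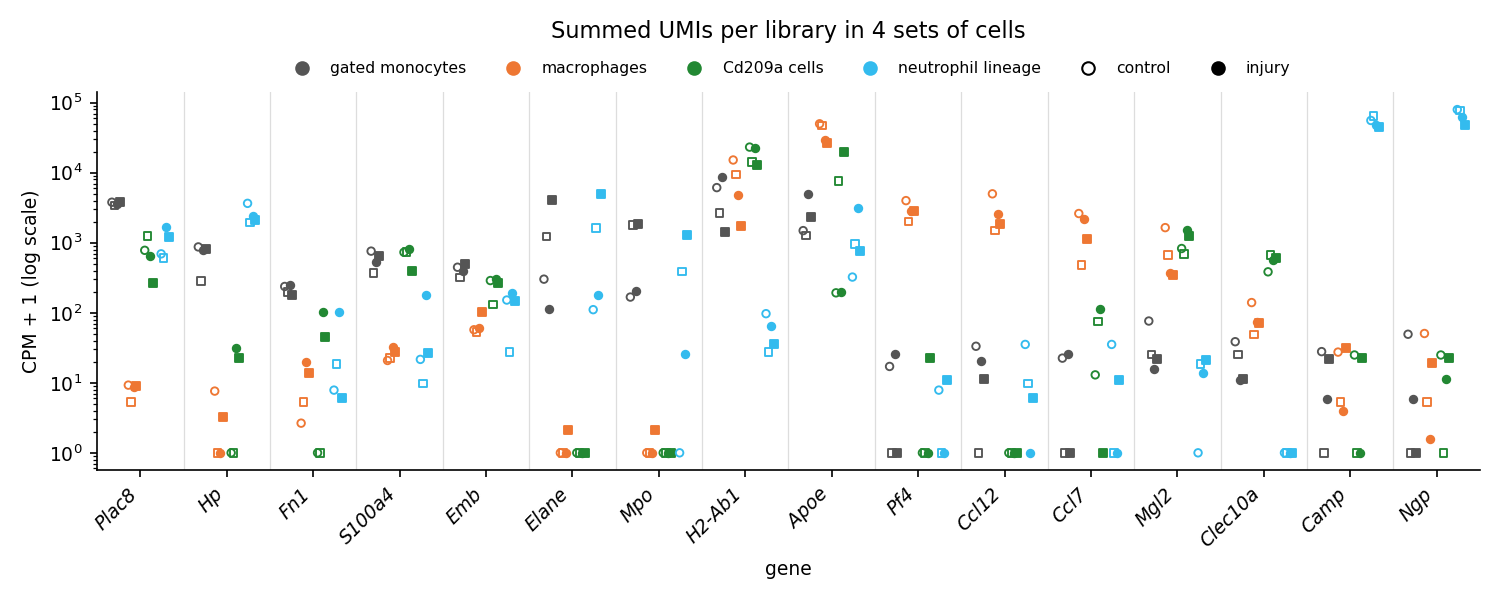
CPM plus 1 (log axis) of 16 genes in each library, summed over gated monocytes, macrophages, Cd209a cells and neutrophil-lineage cells; open points are control and filled points injury libraries, circles replicate 1 and squares replicate 2. *Plac8* in gated monocytes lies between 3424 and 3856 CPM in all 4 libraries, whereas *Elane* spreads from 113 to 4023 CPM.

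The effect of nerve crush within the gated monocytes was tested over the 2 libraries per condition. No gene of 1987 tested was called higher (0%) or lower (0%) by edgeR, whose lowest adjusted p was 0.999. Before adjustment 36 genes had p under 0.05, and DESeq2 called 0 genes higher and 1 lower, *Cxcl2* (adjusted p = 0.00602). The count depended on single libraries, with 6 genes higher and 12 lower without control replicate 1, 15 and 15 without control replicate 2, 0 and 0 without injury replicate 1, and 6 and 25 without injury replicate 2. With the replicate number as a block, edgeR called *Hbb-bs* higher (adjusted p = 0.000646) and *Dcn* lower (adjusted p = 0.0401), each held mostly by 1 cell in 1 library. The 20 classical monocyte genes tested had a median log2 difference of 0.04, the 15 cell cycle genes 0.68 and the 7 chemokine genes −0.80, against −0.01 over all genes.

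The 10 genes of smallest unadjusted p missed the threshold in the fit without a block and are given as values. *Nfkbia*, the inhibitor of NF-κB that NF-κB itself induces, was at 843 and 942 CPM in control and 334 and 230 CPM after injury, without overlap (log2 difference −1.66 ± 0.412, unadjusted p = 0.00460, edgeR adjusted p = 0.999). It was found in 26 of 39 and 14 of 15 control cells and in 21 of 41 and 11 of 18 injury cells. *Fosl2*, a gene of the AP-1 family, was at 167 and 196 CPM in control and 73.8 and 41.8 CPM after injury. *H2afx*, a histone gene that is high in dividing cells, was at 102 and 73.4 CPM in control and 325 and 303 CPM after injury, and *Cdca3*, a gene of mitotic entry, at 32.2 and 48.9 CPM and 103 and 167 CPM. *AW112010* was at 580 and 330 CPM in control and 133 and 125 CPM after injury, but 53 of 108 UMIs of control replicate 1 and 21 of 27 of control replicate 2 lay in a single cell each. The 4 *Cdca3* UMIs of control replicate 2 also lay in 1 cell.

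The other 5 were likewise found in few cells or held mostly by 1. *Cxcl2*, a neutrophil-attracting chemokine, was at 161 and 1113 CPM in control and 34.4 and 20.9 CPM after injury, from 5, 6, 3 and 2 cells. *Tnf* gave 16 and 6 UMIs in control, 13 of the 16 in 1 cell, and 0 UMIs in both injury libraries. *Serpinb6b* gave 14 and 10 UMIs in control, 11 of the 14 in 1 cell, and 0 after injury. *Hbb-bs*, a hemoglobin gene, was at 6301 CPM in injury replicate 1, where all 1281 UMIs lay in 1 cell, and at 136 CPM or less elsewhere. *Dcn*, a gene of fibroblasts, was at 1162 CPM in control replicate 2, where 78 of 95 UMIs lay in 1 cell, and at 156, 34.4 and 104 CPM in control replicate 1 and injury replicates 1 and 2.

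Levels of classical monocyte genes within the 67 cells alone are given without a test. *Ly6c2* was at 2148 and 1984 CPM in control and 2298 and 3124 CPM after injury, *Fn1* at 409 and 343 CPM and 411 and 328 CPM, and *F13a1* at 599 and 572 CPM and 390 and 791 CPM. Only the *Ly6c2* values did not overlap. Control replicate 2 held 7 of these cells.

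Cells that carried cell cycle genes made up a larger share of both injury libraries than of either control library. At least 3 UMIs over 8 genes of division (*Mki67*, *Top2a*, *Cdk1*, *Ccnb1*, *Ccnb2*, *Ccna2*, *Birc5* and *Ube2c*) were found in 5 of 39 (12.8%) and 2 of 15 (13.3%) gated monocytes in control and in 11 of 41 (26.8%) and 10 of 18 (55.6%) after injury. The control and injury shares did not overlap, and no test was run on them. With every cell thinned to 1000 UMIs, at least 1 such UMI was found in 17.9% and 20% of cells in control and in 24.4% and 44.4% after injury. The median depth also rose in that order, from 4207 and 4547 to 4576 and 5201 UMIs. Among the 67 cells the counts were 3 of 26 and 0 of 7 in control and 7 of 23 and 8 of 11 after injury. In macrophages the shares were 0% and 4.69% in control and 10.8% and 22.2% after injury, again without overlap. They overlapped in the neutrophil lineage (11.1% and 69.6% in control, 15% and 57.1% after injury) and in Cd209a cells (14.3% and 0% in control, 5% and 22.2% after injury). Endothelial cells had a *Mki67* UMI in 0.504% of cells against 15.04% of the gated monocytes.

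**Figure D4:**
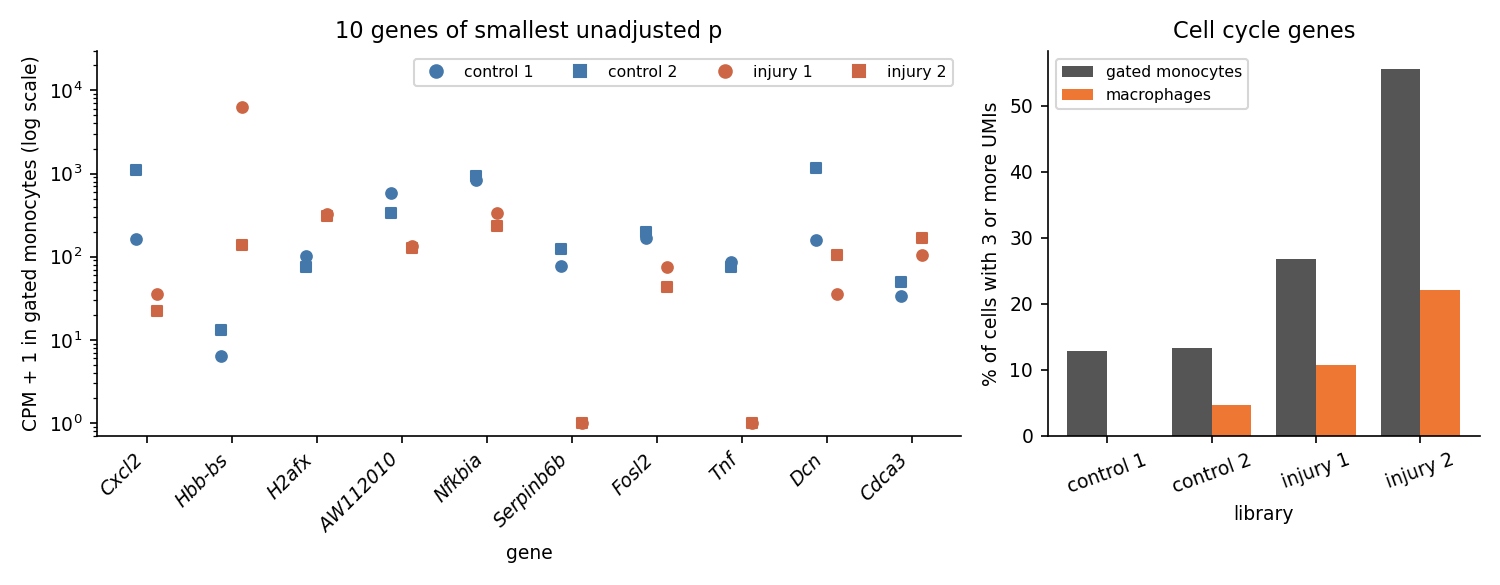
Left, CPM plus 1 (log axis) in the gated monocytes of each library for the 10 genes of smallest unadjusted p between injury and control, none of which passed the threshold. Right, the percentage of gated monocytes and of macrophages with at least 3 UMIs of 8 cell cycle genes, which in gated monocytes was 12.8% and 13.3% in control and 26.8% and 55.6% after injury.

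Whether the injury difference itself was the same in gated monocytes and macrophages was tested as an interaction over the 4 libraries. Of 3566 genes, 3 had a higher difference in the gated monocytes (0.0841%), *Apoe*, *H2-Ab1* and *H2-Eb1*, and 2 a lower one (0.0561%), *Ube2c* and *Tnf*. *Apoe*, the lipid carrier apolipoprotein E, was at 49900 and 47020 CPM in control and 28920 and 26220 CPM after injury in macrophages. In gated monocytes it was at 1488 and 1272 CPM in control and 4939 and 2362 CPM after injury. The conditions did not overlap in either set of cells, and the difference of the log2 differences was 2.37 (edgeR adjusted p = 0.00253). A single member held 376 of the 1004 *Apoe* UMIs of injury replicate 1 and another 132 of the 226 of injury replicate 2. *Apoe* RNA was widespread in these libraries, with a UMI in 93.2% of endothelial cells, and the part of free RNA was not tested. The neutrophil-lineage cells held 322 and 950 CPM in control and 3081 and 753 CPM after injury.

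*H2-Ab1*, an MHC class II chain, was at 15180 and 9360 CPM in control and 4779 and 1712 CPM after injury in macrophages. In gated monocytes it was at 6123 and 2666 CPM in control and 8608 and 1421 CPM after injury, with overlap (difference of the log2 differences 2.105, edgeR adjusted p = 0.0189). *H2-Eb1* was at 9261, 6808, 3187 and 1216 CPM in macrophages and at 3969, 1076, 4540 and 1076 CPM in gated monocytes (2.32, edgeR adjusted p = 0.0236). MHC class II high cells made up 20.5%, 20%, 39.0% and 11.1% of the gated monocytes, and their part in these values was not tested. In the 67 other cells *H2-Ab1* was at 333, 114, 94.9 and 19.3 CPM. With the stricter gate neither gene was called (edgeR adjusted p = 0.410 and 0.698), nor were they by DESeq2 (adjusted p = 0.0758 and 0.0805). *H2-Ab1* and *Apoe* were not called without control replicate 1 (edgeR adjusted p = 0.109 and 0.0585). *Apoe* was also not called with the stricter gate or without injury replicate 1, where its value of 1.85 or 1.90 lay under the fold threshold of 2 (edgeR adjusted p = 0.00312 and 1.41e-33). Without injury replicate 1 the values of *H2-Ab1* and *H2-Eb1* were 1.52 and 1.96, and without control replicate 2 they were 1.86 and 1.65, all under that threshold. *H2-Ab1* also lay under it with no filter on low counts (1.96) and with scaling by total counts alone (1.86).

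*Ube2c*, a ubiquitin carrier of mitosis, had no UMI in control macrophages and was at 62.7 and 96.5 CPM in them after injury, whereas gated monocytes held 75.2 and 245 CPM in control and 221 and 220 CPM after injury. *Tnf* was at 114, 78.0, 185 and 59.8 CPM in macrophages and at 85.9, 73.4, 0 and 0 CPM in gated monocytes, from 22 UMIs in 4 cells. With DESeq2 neither was called (adjusted p = 0.0805 and 0.3799), and with the stricter gate neither (edgeR adjusted p = 0.0558 for both). Without control replicate 1 neither was called (edgeR adjusted p = 0.148 and 0.167), and *Tnf* was not without injury replicate 1 (0.741).

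**Figure D5:**
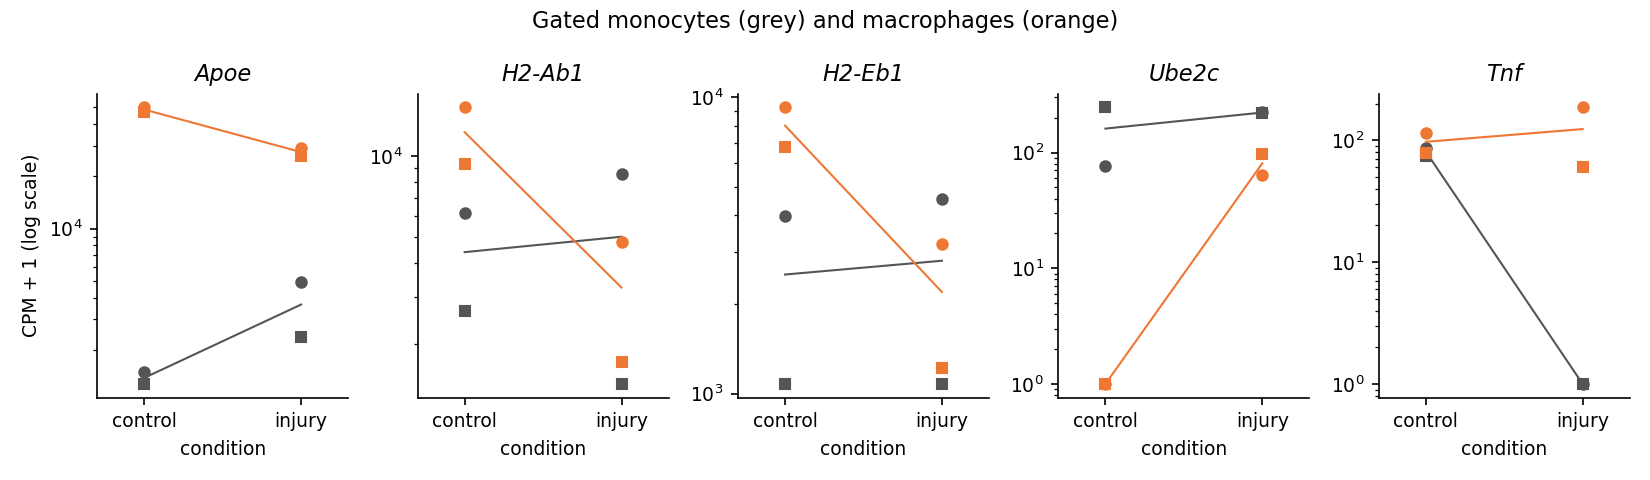
CPM plus 1 (log axes) of the 5 genes whose injury difference differed between gated monocytes (grey) and macrophages (orange); points are libraries (circles replicate 1, squares replicate 2) and lines join the condition means. *Apoe* falls in macrophages from 49900 and 47020 CPM to 28920 and 26220 CPM and lies higher after injury in gated monocytes.

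Markers of other cells were read over whole lists. Of 9 T cell genes, *Cd4* and *Lat* had a UMI each in the members and 7, among them *Trac* and *Trbc2*, were at 0. Those 7 include *Cd3d*, *Cd3e* and *Cd3g*, which the gate itself limited. Of 6 basophil and mast cell genes 2 were found, with 4 UMIs in all, and *Fcer1a*, *Cpa3* and *Prss34* were at 0. Of 13 neutrophil genes in the files 11 had a UMI, led by *S100a8* with 110 UMIs, and *Ly6g* and *Mmp9* were at 0. The list summed to 408 and 391 CPM in control and 143 and 1035 CPM after injury. Its genes *S100a8* and *S100a9* were limited by the gate, so these sums were bounded in part by the selection. Of 10 natural killer genes 8 were found, at 457 and 1308 CPM in control and 29.5 and 272 CPM after injury, led by *Nkg7*, while *Gzmb* and *Prf1* were at 0. All 6 fibroblast genes were found, led by *Dcn*, at 236, 1871, 64.0 and 209 CPM, and all 8 glial genes, led by *Fabp7*, at 80.6, 306, 152 and 585 CPM. Of 19 macrophage genes in the files 16 had a UMI, with 2365 UMIs in all, led by *Apoe* with 1611. At least 3 UMIs of this list were found in 109 of 113 members, and its C1q genes were limited by the gate. Its genes *Mertk*, *Cd163* and *Lyve1* were at 0. *Adgre1* and *Adgre4* were not analysed here.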

How the data were processed

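Droplet 3′ RNA-seq libraries were made from 2 control and 2 injury pools of dorsal root ganglia. The authors deposited UMI counts per gene and barcode, made with Cell Ranger on mm10 (Partek is also named in the submitters' processing notes), unfiltered by cell type. The deposited counts summed to 5585909, 11210875, 11163177 and 9477167 UMIs per library (control 1 and 2, injury 1 and 2). Here barcodes were filtered by the study's limits and gated, and UMIs were summed per library and cell set over libraries with at least 5 cells. Sums were tested with edgeR 4.0.16 (quasi-likelihood, TMM, filterByExpr, Benjamini-Hochberg) in R 4.3.3. DESeq2 1.42.0 was an alternative. Scripts were tested on simulated data. Cells were not taken as replicates. For injury against control the p-values measure the spread between libraries, which the study calls biological replicates pooled from several mice. The tests between cell sets and of the interaction were blocked by library. Their p-values measure how differences within a library vary from library to library. The study also speaks of batches of pooled mice, without saying which libraries make up a batch. No doublet caller was run. Named genes were those of the gate and of fixed lists, the 15 of highest level and, per comparison, up to 12 called genes of largest fold in each direction with at least 50 CPM and without overlap, or the 10 of smallest p where fewer than 5 were called. The members and lists were chosen with earlier results of these data known. Alternatives were another count test, filter, fold threshold, gate, depth and scaling, removal of cells with other types' genes and leaving out each library. Promoter sequences came from RefSeq (GRCm38.p6). Some members of the gene lists are not reported here by name.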

Additional observations from a re-analysis of the deposited data

Results flagged for a closer look

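In 5 genes the injury difference itself differed between gated monocytes and macrophages by the interaction test (edgeR's quasi-likelihood test, Benjamini-Hochberg adjusted p, log2 scale). The difference of the log2 differences was 2.37 for *Apoe* (adjusted p = 0.00253), 2.1 for *H2-Ab1* (0.0189) and 2.32 for *H2-Eb1* (0.0236). It was −7.34 for *Ube2c* (adjusted p = 0.0275) and −8.57 for *Tnf* (0.0281). Of these 5 calls, 1 was shared with DESeq2 (*Apoe*), 0 with the stricter gate, 1 without control replicate 1 (*H2-Eb1*) and 1 without injury replicate 1 (*Ube2c*). The *Ube2c* and *Tnf* values depend on libraries without a UMI, so their size is no bound. *Ube2c* had no UMI in either control library of macrophages and *Tnf* none in either injury library of gated monocytes.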

How the results depend on the processing

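Counts are given as genes higher and lower in the gated monocytes. With no fold threshold they were 274 and 399 against macrophages, 392 and 380 against the neutrophil lineage, and 90 lower against Cd209a cells, and the interaction gave 6 higher. Without the filter on low counts they were 7 and 18 for injury against control, 232 and 524 against macrophages, 88 and 77 against Cd209a cells, 302 and 305 against the neutrophil lineage and 6 and 11 for the interaction. With cells thinned to 1000 UMIs they were 31 and 50, 13 and 17, and 37 and 52 against the 3 sets, and the interaction gave 0 lower. With cells of other types' genes removed, 9 and 18 genes were called against Cd209a cells, the share difference was 0.093 points and *Nkg7* against Cd209a cells was −1.354. That setting removes the cells that held *Nkg7* and granule genes and leaves 1 library per condition with enough gated monocytes, so these changes follow in part from its construction. DESeq2 gave 1 lower gene for injury against control and 1 and 0 for the interaction. The stricter gate gave 0 and 1 for the interaction, and scaling by total counts alone 5 lower, with the median of all genes moved from −0.01 to −0.26. The fit with the replicate number as a block called 1 gene higher (*Hbb-bs*) and 1 lower (*Dcn*) for injury against control. It had 81 genes at an unadjusted p under 0.05, against 36 without the block. Across conditions, same-numbered libraries had deviations correlated at 0.411 and differently numbered ones at −0.411. With 2 libraries per condition the −0.411 mirrors the 0.411 by construction, and the value within a condition is fixed at −1. The 2 pairs were too few to take the numbers as pairing without a source that says so, and a shared batch was not tested. Leaving out each library in turn gave 0 to 15 higher and 0 to 25 lower for injury against control, 65 to 111 and 124 to 178 against macrophages, 23 to 33 and 35 to 47 against Cd209a cells, 89 to 151 and 85 to 152 against the neutrophil lineage, 1 to 9 and 1 to 8 for the interaction, and −1.299 to 0.58 points for the share. For injury against control the counts were 6 and 12 without control replicate 1, 15 and 15 without control replicate 2, 0 and 0 without injury replicate 1 and 6 and 25 without injury replicate 2, where the lone library of an arm is assumed to vary like the others. The cause of these changes was not tested. Injury against control and the interaction could not be fitted with other types' cells removed, since control replicate 2 and injury replicate 2 kept fewer than 5 cells. Among single genes, 215 of 222 values against macrophages, 177 of 197 against Cd209a cells, 192 of 197 against the neutrophil lineage and 22 of 43 of the interaction kept their direction and their side of the call (adjusted p and fold). For injury against control 69 of 86 did, and the other 17 moved past the call, which none of these genes passed in the fit reported. With 15 to 41 gated monocytes per library, a gene at a few UMIs rests on 1 or 2 cells.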
